A study of Drosophila melanogaster with 7 samples.

Results

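The transcriptome described here is that of the salivary gland of w1118 prepupae 14 h after puparium formation, as measured on 2 of the 7 Affymetrix fly arrays of the study. The w1118 arrays were taken by their labels, and their 18769 fly probe sets, short groups of oligonucleotides that each report on 1 transcript or a few, were ranked by mean intensity. The study compared glands that express the yeast transcription activator GAL4 from a heat-shock transgene with glands that lack it. Line X1 with 2 copies of P{hs-GAL4} gave 3 arrays, line 89 gave 1 array from animals with 2 copies and 1 from animals with 1 copy, and w1118, a strain with no GAL4, gave 2. Rearing was at 25 °C, and a shock of 30 min at 37 °C was given at 9 h in X1 and line 89 and at 9.5 h in w1118, before dissection at 14 h. The w1118 profile is therefore that of glands a few hours after a heat shock, and no unshocked gland was analysed here. The heat-shock promoter acts in the whole animal and not in the gland alone. Heat-shock time and strain background cannot be told apart from GAL4 in any comparison with w1118. The same holds for array preparation, since some controls added to the samples also differed between w1118 and X1. The series text calls the replicates biological, but neither the number of animals or glands behind an array nor their sex is stated in the labels.

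The larval salivary gland makes the glue with which the animal fixes itself to a surface at puparium formation, and its nuclei carry giant polytene chromosomes. A prepupal pulse of the steroid hormone ecdysone then acts through the EcR and usp receptor pair and a cascade of transcription factors. The gland turns to late secretion and is destroyed soon after, by caspases and by autophagy together. A dissection 14 h after puparium formation falls at about the start of that destruction.

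Arrays of w1118 had a median intensity of 42.2 in replicate 1 and 42.5 in replicate 2, in the dChip units of the deposited table. Across probe sets, whose values depend on each other, log2 intensities of the pair correlated at r = 0.978, and the median absolute difference was 0.22 on the log2 scale. Intensities were sorted into 4 classes by the w1118 mean. Those under 16 were called silent, from 16 to 64 dim, and above that moderate up to a log2 intensity of 10, from which they were called abundant. On the log2 scale the 3 limits are 4, 6 and 10. Most of the 100 AFFX-Dm control probe sets, which have no fly gene in the annotation used, lay at the low end: their median was 15.4, 97 were under 64, and 1 reached 12596. Signal under 64 therefore cannot be told from the level of these controls, and "silent" stands for an intensity, not for proof that a gene is off.

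Of the fly probe sets, 3590 (19.1%) were silent, 7717 (41.1%) dim, 6213 (33.1%) moderate and 1249 (6.65%) abundant. The abundant class held 70.7% of the summed intensity in replicate 1 and 69.7% in replicate 2, and the silent class held 0.558% and 0.614%. Both arrays fell in the class of their mean for 91.7% of abundant, 90.7% of moderate, 76.5% of dim and 67.4% of silent probe sets. The median absolute log2 difference between the arrays was 0.17 for abundant, 0.20 for moderate and 0.37 for dim probe sets. For silent ones the floor sets it to 0. The limits cut through a continuous range: Prosbeta5 at 1027 and qkr58E-3 at 1027 were the last abundant probe sets with 1 symbol, and CG7059 and Asph, both at 1023, the first moderate ones. At the lowest limit CG4577 at 16.013 and Fum2 at 16.002 were dim, and CngA and Or59c, both at 15.997, were silent.

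**Figure D1:**
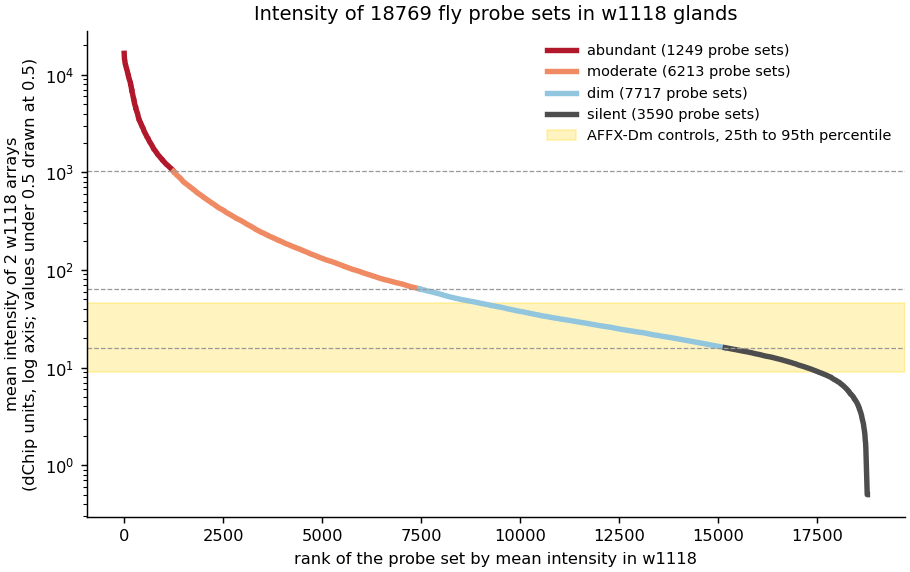
Mean intensity of the 2 w1118 arrays (y axis, dChip units, log scale) against the rank of each of 18769 fly probe sets (x axis), coloured by class, with dashed lines at the class limits and a band from the 25th to the 95th percentile of the AFFX-Dm controls. The silent class and the lower part of the dim class lie inside or below the band, and the curve has no step at any limit.

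Classes are of intensity, since probe sets bind their targets with unequal strength. Among the 1094 genes with more than 1 probe set, the probe sets of 1 gene spread over a median of 2.50-fold, and 34.1% spread over more than 4-fold. Of 117 such genes with an abundant probe set, 45 had another under 64. A gene's level below is that of its brightest probe set in w1118, and levels of different genes are not ranked against each other beyond these classes. By that rule the 11982 genes with a probe set of 1 symbol divided into 994 abundant (8.30%), 4920 moderate, 4509 dim and 1559 silent ones, with a median intensity of 62.4. Genes known only by a CG or CR number made up 29.0% of the abundant, 34% of the moderate, 52.2% of the dim and 58.1% of the silent genes. Probe sets without a gene symbol made up 14.6% of the abundant and 42.2% of the silent class, but 37 of the 100 brightest probe sets had none.

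The brightest 25 probe sets with 1 symbol had means from 12719 to 15988, close to the highest value on any of the 7 arrays, 17212. Among them were 5 genes of the Eig71E cluster (Eig71Ej, Eig71Ek, Eig71Ef, Eig71Ed and Eig71Ea), which encode small secreted proteins of the late prepupal gland. Another 5 encode cytosolic ribosomal proteins, namely RpLP1, RpL15, RpL41, RpS18 and RpLP2. Also among them was Ect3, which encodes a predicted beta-galactosidase, with 16024 in replicate 1 and 15952 in replicate 2. Arc1, which encodes a Gag-like protein that packages RNA, was represented by both of its probe sets there, with 14782 and 15552 for the brighter one. Obp99b, of the odorant-binding protein family of small secreted carriers, had 14475 and 14535. The lysosomal cysteine protease gene CtsL1 had 13763 and 13580, and eIF4A, an RNA helicase of translation initiation, had 13060 and 12964. Drsl6, a relative of the antifungal peptide gene Drs, had 12653 and 13595. The remaining names were CG2444, CG15202, Sirup, CG10853, CG5171, Ag5r, CG10365 and fok. No member of the 25 differed between the arrays by as much as 2-fold.

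Late secretion genes were abundant throughout. All 9 measured Eig71E genes of 11 listed were abundant, with a median of 13117 against 62.4 for all genes. Eig71Ej had 14423 in replicate 1 and 14655 in replicate 2, while Eig71Ee was the dimmest with 914 and 1400. The 8 genes from Eig71Ed to Eig71Ek also formed the longest run of adjacent abundant genes in the genome order, and the next longest runs, 11 of them, had 3 genes each.

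Glue genes, which belong to the earlier larval secretion, were still above the controls. Of 11 glue and new-glue genes, 3 were abundant, 4 moderate, 3 dim and 1 silent. Sgs7 had 2926 and 3625 in replicates 1 and 2, Sgs8 had 1520 and 2709, and Sgs4 had 1758 and 1654. Sgs3 had 662 and 758, and Sgs5 had 829 and 564. The new-glue genes ng1 to ng4 all lay under 64, from 4.62 and 16.7 for ng2 to 32.2 and 34.9 for ng4. None of 13 mucin genes reached 64 in the mean, and their median was 19.5.

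Of the transcription factors that specify the gland, 6 of 11 were measured and none was abundant. The gland factor gene sage had 475 and 404, the zinc finger gene sens 99.9 and 103, and the forkhead gene fkh 97.8 and 91.3. The other measured ones were eyg with 52.5 and 83.5, hkb with 33.7 and 30.3, and Scr, the Hox gene of the gland's segment, with 16.7 and 44.0. Of the gland's markers, the Eig71E genes were therefore abundant, the Sgs genes abundant or moderate, and the measured factors moderate or dim.

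Genes of the ecdysone response had a median of 738 over 15 measured receptors and early factors, with 6 abundant, 6 moderate, 1 dim and 2 silent. The zinc finger gene br had 4583 and 5579, and Eip93F, a stage-specific factor needed for gland destruction, had 3545 and 3239. Hr78 and Hr39, both nuclear receptor genes, had 2886 and 2607, and 2315 and 2032. The transporter gene E23 had 1911 and 1828. Both partners of the hormone receptor were moderate: usp had 836 and 997, and EcR had 749 and 727. The competence factor gene ftz-f1, which marks the middle of the prepupal period, had 356 and 663. Hr3, a nuclear receptor gene of the period before, was silent with 14.3 and 7.07, and Kr-h1, a juvenile hormone response gene, was silent with 8.47 and 21.5. Eip74EF and Eip75B were not analysed here. Downstream, 2 of 11 ecdysone-inducible effector genes were abundant, Eip63E, a cyclin-dependent kinase gene, with 4435 and 3128, and Edg78E, a cuticle protein gene, with 1178 and 1506, and the other 9 were moderate.

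Cell death genes for several steps of the caspase pathway were abundant. Of 16 measured genes, 6 were abundant, 6 moderate, 3 dim and 1 silent, with a median of 285. Dark, the Apaf-1 homologue that activates the initiator caspase, had 5126 and 5429, and that caspase's gene Dronc had 5089 and 3724. The caspase gene Strica had 1948 and 2123, and the effector caspase gene Dcp-1 had 315 and 233. On the inhibitory side Diap2 had 4196 and 3264, and Buffy, of the Bcl-2 family, had 3397 and 3114. The death activator gene grim was silent with 6.22 and 16.7, and its relative skl was at 41.6 and 69.9. Probe sets of 1 symbol for rpr, hid, Diap1, Drice and Decay were not among those used here. The scavenger receptor gene crq, which acts in the engulfment of dying cells and also marks hemocytes, had 1489 and 1497.

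Autophagy genes had a median of 805 over 24 members, and 11 were abundant, 11 moderate, 1 dim and 1 silent. Atg8a, whose product coats the growing autophagosome, had 7367 and 6392. The kinase complex gene Atg13 had 4886 and 4329, the protease gene Atg4b 3660 and 2723, and Atg7, which encodes the activating enzyme of the conjugation pathway, 3304 and 2875. The cargo adaptor gene ref(2)P had 2433 and 3208. Only Atg8b, a close relative of Atg8a known for its expression in the male germline, was silent, with 14.2 and 14.4. Of the 21 autophagy and 12 cell death genes bright enough to compare, 0 differed by 2-fold between the arrays, where 2.81% of all genes did, so the count is near that share.

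Lysosomal proton pump genes split into high and low members. Of 31 V-ATPase genes, 11 were abundant and 15 lay under 64. Vha16-1 had 4645 and 4198 and VhaM9.7-b had 2677 and 2552, whereas Vha100-3 had 2.81 and 1.37 and Vha36-2 had 7.53 and 10.2.

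**Figure D2:**
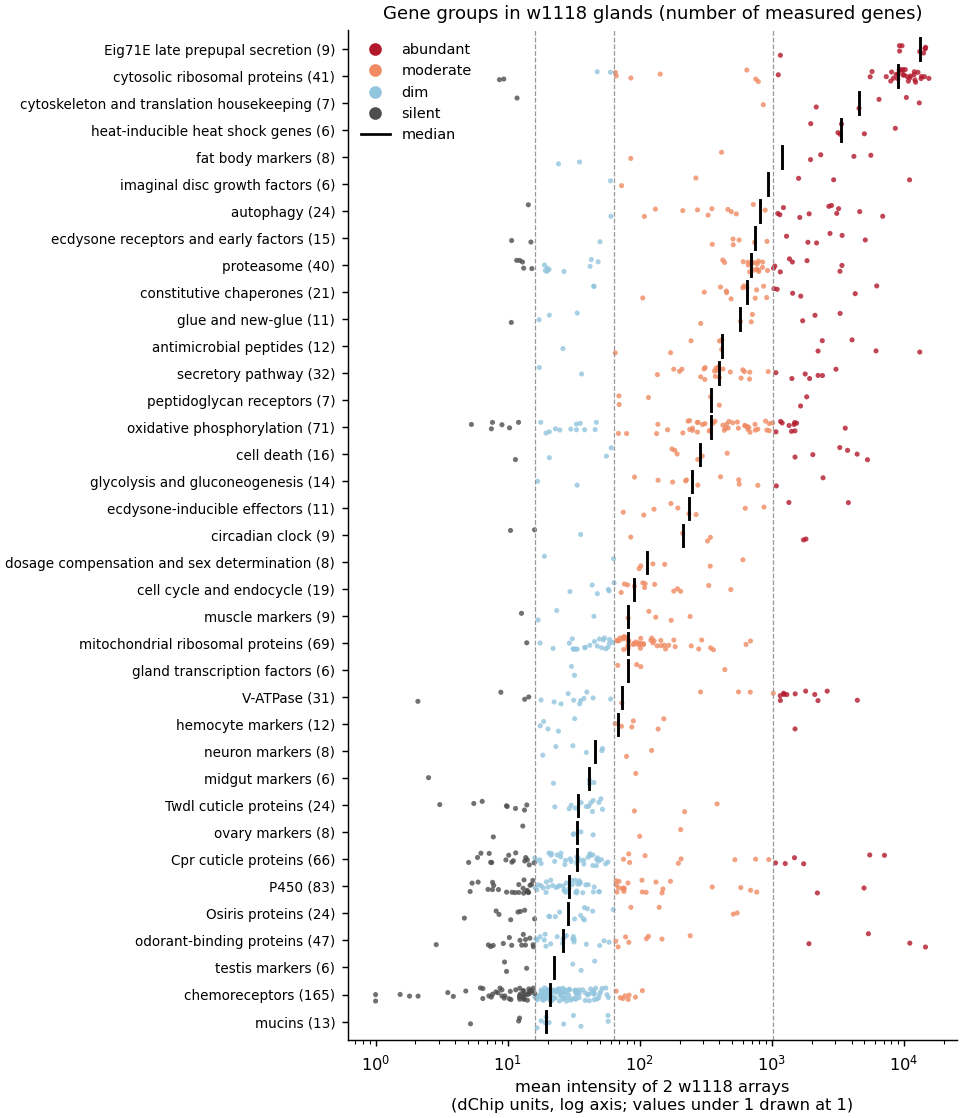
Each point is 1 gene at the mean intensity of its brightest probe set over the 2 w1118 arrays (x axis, dChip units, log scale), coloured by class, for gene groups with at least 5 measured genes (y axis, number of genes in brackets). Black bars mark medians, which run from 19.5 for mucins to 13117 for Eig71E genes, and dashed lines mark the class limits.

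Genes for making protein were among the brightest. Of 41 measured cytosolic ribosomal protein genes of 93 listed, 30 were abundant, with a median of 9018. RpLP1 had 15319 and 15468, and the duplicates RpS19b and RpS28-like were silent with 4.22 and 14.4 and with 11.2 and 6.11. Of 69 mitochondrial ribosomal protein genes none was abundant, and the median was 81.5, near that of all genes. Among 71 genes of oxidative phosphorylation, 10 were abundant, 43 moderate, 12 dim and 6 silent. The silent ones included COX7AL, UQCR-11L and COX6AL2, each named as the relative of another subunit gene.

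Genes of protein folding, secretion and degradation were spread over the classes. The secretory pathway group had a median of 397 over 32 genes, with 7 abundant and 23 moderate. The cargo receptor gene bai had 3449 and 2641, and the lectin chaperone gene Cnx99A had 2609 and 2209. Among 21 constitutive chaperones 6 were abundant, led by Hsc70-3, the Hsp70 of the endoplasmic reticulum, with 7113 and 5290. Of 40 proteasome genes 8 were abundant, 18 moderate, 9 dim and 5 silent, and Rpn6, a lid subunit gene, had 3700 and 3065. The silent proteasome genes included Prosbeta2R2, Prosbeta5R1 and Prosbeta4R2, which are duplicates used in the testis. Glycolysis had a median of 250 over 14 genes, with Pepck1, a gluconeogenic enzyme gene, at 2788 and 2079.

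Cell cycle and endocycle genes had no abundant member among 19, and their median was 90.9. PCNA, the replication clamp, had 494 and 482, and the pre-replication genes Orc1, Orc2 and Orc5 were all under 64. Of 9 clock genes, vri had 1917 and 1696 and the kinase gene dco had 1647 and 1812, whereas per had 8.76 and 12.2 and Clk had 12.6 and 19.3. Of 8 genes of dosage compensation and sex determination none was abundant, and Sxl, the switch gene of the pathway, had 626 and 578. Of 7 cytoskeleton and translation housekeeping genes 5 were abundant, and chic, the profilin gene, had 4571 and 4535.

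Immune genes included several abundant ones, and the labels name no infection. Of 12 antimicrobial peptide genes 5 were abundant, 6 moderate and 1 dim. Drsl1 had 6787 and 5472, CecB 4993 and 3075, Def 3385 and 1415, and Drs 2622 and 1838. Of 7 measured peptidoglycan receptor genes, PGRP-SB2 had 2114 and 1546 and PGRP-LA had 1650 and 1639.

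Large families of other tissues were mostly dim or silent, with a few bright exceptions. Of 83 cytochrome P450 genes, 60 lay under 64 and 2 were abundant, Cyp4e2 with 5816 and 4121 and Cyp1 with 2306 and 2102. Of 66 Cpr cuticle protein genes, 51 lay under 64 and 6 were abundant, with Cpr51A at 8192 and 5998 and Cpr100A at 4818 and 6160. Of 47 odorant-binding protein genes, a family listed after its values were seen, 35 lay under 64 and 4 were abundant: Obp99b, Obp99d, Obp44a and Obp99c. Imaginal disc growth factors, listed likewise, are secreted relatives of chitinases, and Idgf3, Idgf2 and Idgf4 were abundant among 6. Idgf3 also shows the limit of such levels, since its 2 probe sets had means of 10985 and 1608.

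Markers of other cells were checked against the gland label. Of 8 measured fat body markers 4 were abundant: the storage protein gene Lsp2 with 5624 and 5571, the storage protein receptor gene Fbp1 with 3700 and 4630, the lipoprotein gene apolpp with 2547 and 2125, and Fbp2 with 1647 and 2267. The yolk protein genes Yp1, Yp2 and Yp3, also on that list, were at 37.4 and 32.5, 91 and 79.6, and 23.4 and 25.0. Summed over the 8 markers, the level was 12062 to 18402 in X1, 20710 and 14048 in line 89, and 13988 and 15240 in w1118. Both w1118 sums lay within the range of the GAL4 arrays, but single markers did not all follow the sum. By limma, 1 marker was higher and 2 were lower in X1 than in w1118, where 21.1% of all genes were called either way. Fbp2, 1 of the lower ones, had 27.2, 54.3 and 52.1 in X1. Fat body lies against the gland, and whether these transcripts came from it was not tested. In whole-tissue RNA, fewer cells of a type and less RNA per cell cannot be told apart.

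Markers of further cell types were mostly moderate, dim or silent. Of 12 hemocyte markers only crq was abundant, 6 were moderate and 5 dim, with a median of 68.7 against 62.4 for all genes. The 6 moderate ones are not given singly here. Among the dim ones, Hml, eater and He had 26.8 and 13.5, 15.7 and 21.6, and 27.0 and 37.2. None of 9 muscle, 6 midgut, 8 neuron, 6 testis, 8 ovary or 1 photoreceptor markers was abundant, and Act79B was the brightest of them at 230.5 and 249.4. The neuron marker elav differed between the arrays, with 168 and 77.6. Of 165 odorant, gustatory and ionotropic receptor genes, 47 were silent, 110 dim and 8 moderate, and Gr28b was the brightest with 118 and 90.6. A total of 2421 probe sets were under 16 on each w1118 array, and 625 of them were under 16 on all 7 arrays.

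Apart from the Eig71E run, the runs of 3 adjacent abundant genes included Hsp27, CG4080 and eIF4E1, and Drep4, Uvrag and CG31729.

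Between the 2 w1118 arrays few probe sets differed. A difference was counted at 2-fold or more on values raised to a floor of 16, with the brighter array at a log2 intensity of 7 or above. Of 5364 probe sets that reached this level, 159 (2.96%) differed: 95 (1.77%) were higher in replicate 2 and 64 (1.19%) in replicate 1. With 1 array on each side there is no test, and the values describe these arrays. At 4-fold or more, 7 were higher in replicate 2 and 12 in replicate 1. Counted by each gene's brightest probe set, an option added after the data were seen, 122 of 4340 genes (2.81%) differed, 66 higher in replicate 2 and 56 in replicate 1.

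**Figure D3:**
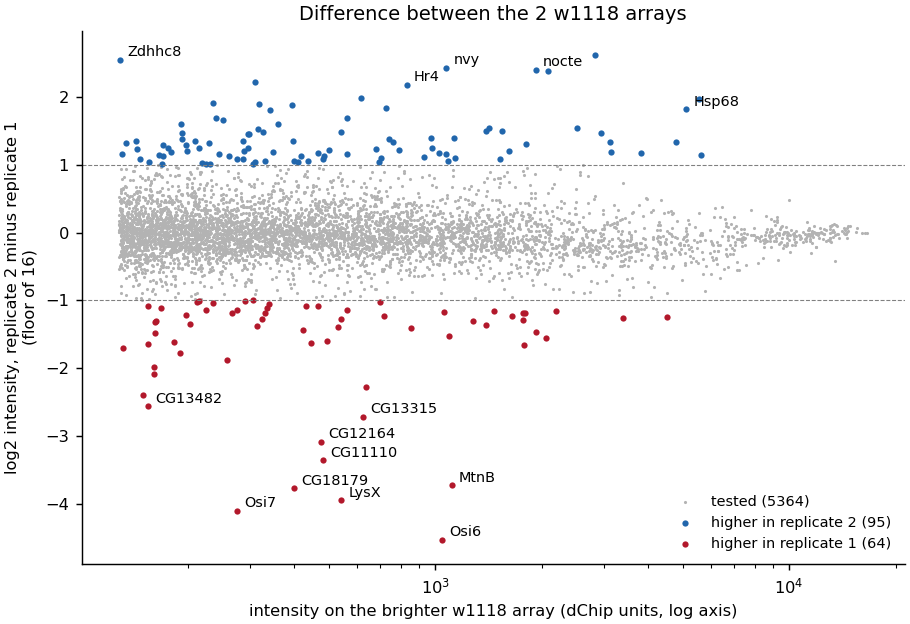
Difference between the 2 w1118 arrays (y axis, log2 intensity of replicate 2 minus replicate 1 with a floor of 16) against the intensity on the brighter array (x axis, dChip units, log scale) for the 5364 probe sets at a log2 intensity of 7 or above on it. Coloured points differ by at least 2-fold, 95 upward and 64 downward, and the largest downward point is Osi6.

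Several heat-shock genes were brighter in replicate 2 although both groups of animals had the same labelled shock. Hsp68, an inducible member of the Hsp70 family, had 1449 in replicate 1 and 5112 in replicate 2, 3.53-fold higher. The co-chaperone gene DnaJ-1 had 1911 and 4803. A probe set shared by Hsp70Aa and Hsp70Ab had 1428 and 5581. A probe set shared by Hsp70Bc and Hsp70Bb had 401 and 2080, and one shared by 4 Hsp70B copies had 462 and 2822. Another probe set of those copies stayed near the controls at 17.7 and 16.3, and so did 1 that also covers CG31343, at 30.8 and 25.4, so the copies cannot be told apart.

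The small heat-shock protein genes moved less. Hsp26 had 7168 and 9978, Hsp27 had 4889 and 5111, and 2 probe sets shared by Hsp22 and CG4456 had 5449 and 6371, and 3579 and 3422. The regulator gene stv had 1310 and 2616, just under 2-fold, and Hsf, the heat-shock transcription factor, had 2938 and 3375. Of the 6 genes on the heat-inducible list with a probe set of their own, Hsf among them, 2 differed by 2-fold. Both were higher in replicate 2, where 66 of all 4340 tested genes were. Of 18 constitutive chaperones tested, 0 differed in either direction at 2-fold. In the GAL4 arrays, Hsp68 had 7829, 7273 and 6156 in X1, and 8950 and 5443 in line 89, so w1118 replicate 1 was the lowest of all 7 arrays and replicate 2 the second lowest.

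Some nuclear receptor and other regulatory genes were also higher in replicate 2. The nuclear receptor gene Hr4 had 183 and 830, and both probe sets of Hr38, another nuclear receptor gene, were higher there, at 74.6 and 241 for one and at 222 and 484 for the other. Of 15 measured ecdysone receptors and factors, 12 were compared by their brightest probe set and 2 of these, Hr4 and Hr38, differed, where 2.81% of all genes did. The brightest probe set of br differed by less than 2-fold, but 2 of its dimmer ones were higher in replicate 2, with 720 and 1521 and with 119 and 262. The corepressor gene nvy had 200 and 1074, and nocte had 365 and 1925. Zdhhc8, which encodes a predicted palmitoyltransferase, had 21.9 and 129, and the RNA-binding protein gene cpo had 97.7 and 343. CG13947 had 66.7 and 310, CG11122 63.1 and 236, and Hers 86.1 and 319. Zdhhc8, cpo, CG13947, CG11122, Hers, the Hr38 probe set at 74.6 and the br one at 119 reached the minimum only on replicate 2. On the GAL4 arrays Hr4 ranged from 63.0 to 319, all below w1118 replicate 2.

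The largest differences in favour of replicate 1 were in Osi6, Osi7, LysX, CG18179 and MtnB. Osi6, of the Osiris family of insect transmembrane proteins made in cuticle-forming cells, had 1045 in replicate 1 and 45.4 in replicate 2, where the second value is at the level of the controls. Its log2 difference, replicate 2 minus replicate 1, was -4.53, and -4.03 with a floor of 64. Osi7 had 275 and 4.72, a log2 difference of -4.11 with the floor of 16 and -2.11 with one of 64, and Osi14 had 715 and 303. Osi6 and Osi7 reached the minimum only on replicate 1, and the Osiris, Tweedle, metallothionein and lysozyme families were listed after their values were seen, so no count of them is read. TwdlE, of the Tweedle cuticle proteins, had 637 and 132, and TwdlT had 314 and 122, and TwdlT passed the minimum only on replicate 1. The metallothionein genes MtnB, MtnC and MtnD, whose products bind heavy metals, had 1114 and 84.2, 161 and 64.8, and 160 and 40.8, while MtnA had 4103 and 2957. Of the Cpr cuticle protein genes, 11 were bright enough to compare, and 1 of them differed, Cpr72Ea, with 495 and 1395, higher in replicate 2. The lysozyme gene LysX had 543 and 35.3, and of the other measured lysozymes LysP had 99.4 and 86.8 and LysS 1.32 and 2.92. CG18179 had 400.0 and 29.4, CG11110 482 and 47.0, CG12164 476 and 55.9, CG13315 625 and 94.9, and CG13482 154 and 26.2. MtnB, MtnC, MtnD, LysX and these CG genes also reached the minimum only on replicate 1.

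On the GAL4 arrays the same genes ranged widely too. Osi6 had 138, 74.9 and 76.3 in X1 and 157 and 124 in line 89, all far below w1118 replicate 1 and above replicate 2. MtnB had 44.0, 10.7 and 8.68 in X1 and 241 and 517 in line 89. TwdlE had 711, 71.4 and 71.4 in X1 and 728 and 176 in line 89, so it was high in some arrays of every group. Of the 64 probe sets higher in w1118 replicate 1, 41 were bright enough to compare between X1 replicates 1 and 2, and 43.9% of these differed, 10 higher in replicate 1 and 8 in replicate 2. Of the 95 higher in w1118 replicate 2, 25.6% of 78 differed there. Over all probe sets that X1 pair differed at 20.2%, so the second share is near it. Between X1 replicates 2 and 3, 0.215% of all probe sets and 0 of either set differed. The line 89 arrays, with 2 copies and 1 copy, differed at 28.1%.

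**Figure D4:**
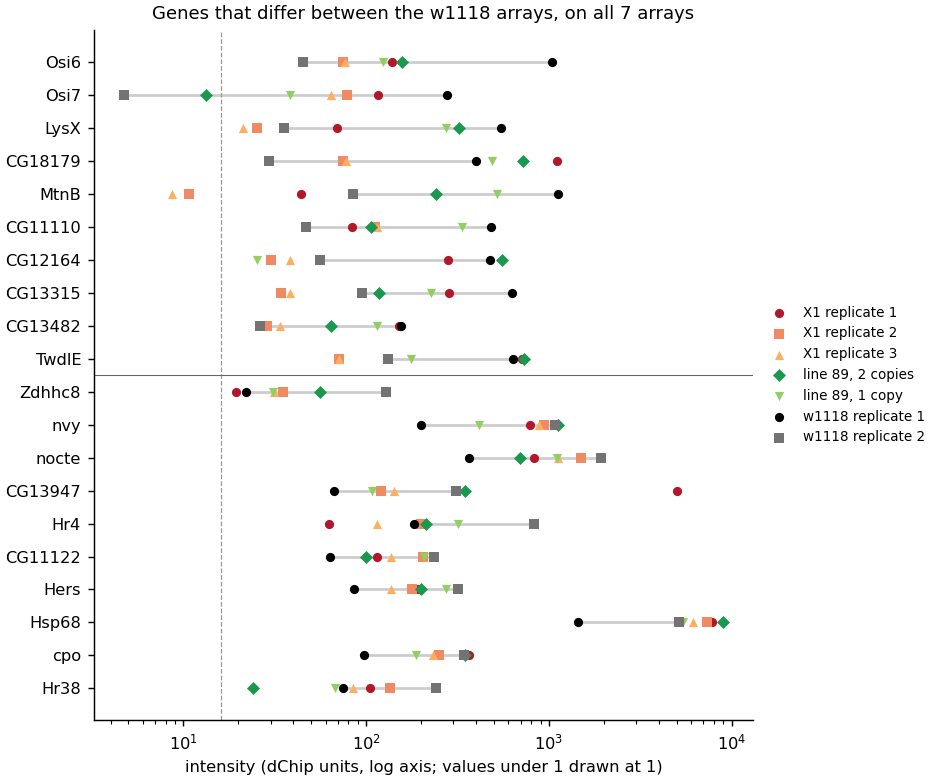
Intensity (x axis, dChip units, log scale) on all 7 arrays of the 10 genes with the largest difference in favour of w1118 replicate 1 (upper block) and the 10 in favour of replicate 2 (lower block), with a grey line joining the w1118 arrays. Osi6 is highest in w1118 replicate 1 at 1045, and Hsp68 is lowest there at 1449.

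Probe sets of 1 gene mostly differed in the same direction between the arrays. Of 17 genes in these sets with at least 2 tested probe sets, 15 had all of them on the same side. The gene gpp was the only one called both ways. Only 4 of the 17 had 2 or more probe sets past 2-fold in the same direction, and Hr4 had 1 of its 2 tested ones. Each gene entered these sets through a probe set that differed, and the same share over all genes was not computed. Of the added controls, the poly-A RNAs were brighter in replicate 1, with 2204 and 1322 for the 3' probe set of dap and 863 and 424 for the 5' one. The fly's own 18S ribosomal RNA was also brighter there, with 236 and 96.4 at its 5' end. The hybridization controls were closer, with 10544 and 10464 for the 3' probe set of cre. Some added controls were also brighter in w1118 than in X1. A middle probe set of bioB, a hybridization control, had 543 and 494 in w1118 and 155, 186 and 282 in X1. In line 89 it had 293 and 223. The 5' probe set of dap had 45.6, 54.7 and 78.5 in X1 and 419 and 517 in line 89. A 5' probe set of bioD overlapped, with 4051 and 3708 in w1118 and 3828, 3645 and 4358 in X1. The part of the controls in the differences between replicates or groups was not tested.

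The w1118 classes were carried over to the GAL4 arrays to a varying extent. Of the 1249 abundant probe sets, 775 (62.0%) passed the same limit, a log2 intensity of 10, on all 5 GAL4 arrays, and 0 were under 64 on all of them. Shares that passed it were 71.0%, 81.2% and 77.0% in X1 replicates 1 to 3, and for line 89 the share was 79.7% at 2 copies and 84.6% at 1 copy. Of the 3590 silent probe sets, 3387 (94.3%) were under 64 on all 5 GAL4 arrays, and 3 were abundant on all.

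**Figure D5:**
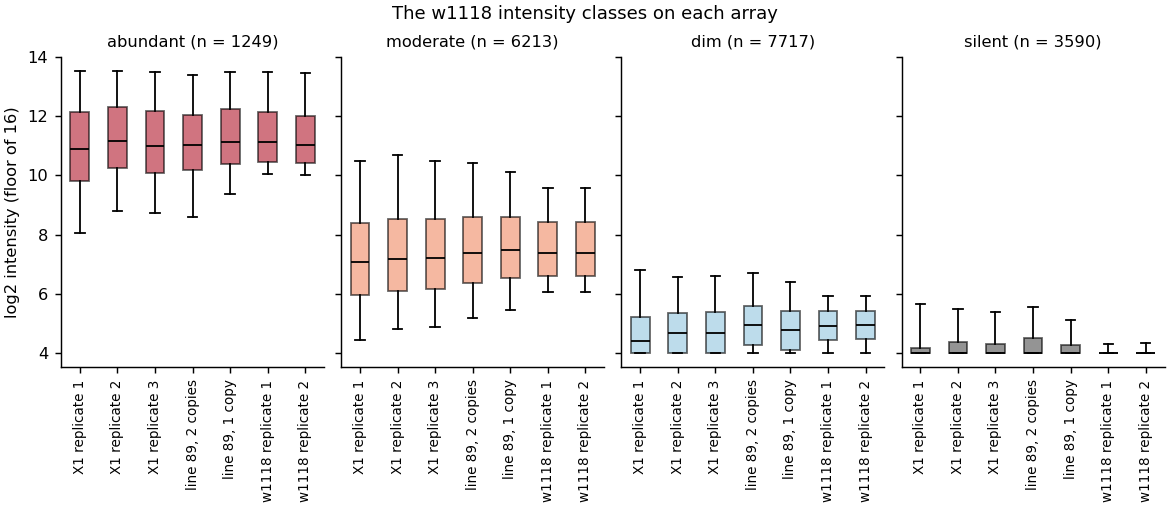
Log2 intensity with a floor of 16 (y axis) of the w1118 classes on each of the 7 arrays (x axis). Boxes span the quartiles with the median as a line, and whiskers run to the 5th and 95th percentiles. The boxes of w1118 are narrow because the classes were cut on those arrays, and the order of the classes is kept on every array.

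In limma, 3404 of 18769 probe sets (18.1%) differed between X1 and w1118, 1407 (7.5%) higher and 1997 (10.6%) lower in X1, and 822 (4.38%) differed between line 89 and w1118, 513 (2.73%) higher and 309 (1.65%) lower in line 89. Between X1 and line 89, 371 (1.98%) differed. Among the abundant class 166 (13.3%) were higher and 164 (13.1%) lower in X1, and 41 and 23 in line 89. With quantile normalization of all 7 arrays, these counts were 99 higher and 383 lower in X1, and 30 and 77 in line 89, so the balance turned with the scaling. Since the classes were cut on the w1118 arrays that enter these comparisons, nothing is read from these shares. The genes named below were picked by their values in the same comparisons, so their limma p-values only describe them. Without X1 replicate 2, X1 replicate 3, w1118 replicate 1 or w1118 replicate 2 the abundant counts were 73 and 73, 61 and 58, 97 and 51, and 79 and 60 (higher and lower in X1). In line 89 they were 23 and 4 without w1118 replicate 1 and 18 and 5 without w1118 replicate 2.

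Abundant genes that rose most in X1 were GstT4, NKCC, Vta1, CG2218, cpa, Wdfy2, Def, Vinc, CG8736 and Karybeta3. GstT4, a glutathione transferase gene, had 9959, 12373 and 11594 in X1, against 1284 and 1076 in w1118. Its log2 change was 3.26 ± 0.14 (SE, limma adjusted p = 0.00221). Vta1, which encodes a cofactor of the ESCRT pathway, had 9880, 10270 and 9632 in X1 and 1146 and 1269 in w1118, a log2 change of 3.04 ± 0.07 (SE, limma adjusted p = 0.000810). In line 89 GstT4 had 9417 and 13575 and Vta1 had 7388 and 8040, also above every w1118 array. Def had 13470, 13665 and 13680 in X1 against 3385 and 1415 in w1118. The calls of NKCC, Def, Vinc and CG8736 were lost without X1 replicate 2 and without X1 replicate 3, at adjusted p from 0.0536 to 0.111, and that of Def also without X1 replicate 1, at 0.0737. Those of Def and Vinc were lost with a floor of 64 as well, at 0.0948 and 0.0532, and that of CG8736 with all 5 GAL4 arrays as 1 group, at 0.159.

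Abundant genes that fell most in X1 were Cyp4e2, CG33127, Idgf3, CG3277, CG16890, Fbp2, ldd, CG4757, CG9021 and Irk1. The Idgf3 entry is the dimmer of its 2 probe sets, with a w1118 mean of 1608. Cyp4e2, a cytochrome P450 gene, had 31.6, 40.3 and 41.0 in X1, 62.1 at 2 copies and 1537 at 1 copy of line 89, and 5816 and 4121 in w1118. The log2 change in X1 was -7.03 ± 0.22 (SE, limma adjusted p = 0.00133). The fat body marker Fbp2 had 27.2, 54.3 and 52.1 in X1, 37.7 and 996 in line 89, and 1647 and 2267 in w1118, and 2 other fat body markers were called, Yp1 lower and Lsd-1 higher in X1, where 21.1% of all genes were called by their brightest probe set. Irk1, a potassium channel gene, had 154, 171 and 223 in X1 and 5698 and 4332 in w1118, with 1892 and 4640 in line 89. The calls of CG16890 and CG9021 were lost without either w1118 replicate, at adjusted p from 0.0524 to 0.0626, and that of ldd without w1118 replicate 2, at 0.0542. That of CG4757 was lost without X1 replicate 2 or 3 or without either w1118 replicate, at 0.0518 to 0.123. With all 5 GAL4 arrays as 1 group, 9 of these 10 falls lost their call, at adjusted p from 0.0596 to 0.467, and only that of CG33127 passed.

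Among genes silent on both w1118 arrays, those brightest in X1 were CG9733, scpr-C, TpnC73F, CG9451, Atx-1, mwh, CG13445, CG13362, per and Prosbeta2R2. Only 7 such probe sets had an abundant X1 mean. For these genes both w1118 values were raised to the floor of 16, so the w1118 spread entered the fit as 0. They were also picked by low w1118 and high X1 values on the arrays of the fit. Their limma p-values therefore largely restate that choice and are not separate evidence of a change. CG9733 had 7099, 9995 and 9056 in X1, 9725 and 7332 in line 89, and 2.56 and 6.22 in w1118, so that the X1 mean of log2 values lay 539-fold above the floor of 16 (limma adjusted p = 0.000661). The log2 change was 9.08, and 7.08 with a floor of 64. The clock gene per had 599, 870 and 784 in X1, 135 and 29.6 in line 89, and 8.76 and 12.2 in w1118, with an X1 mean of log2 values 46.4-fold above the floor of 16 (limma adjusted p = 0.00153). Its log2 change was 5.54, and 3.54 with a floor of 64. CG13445 was bright on 1 array alone, with 3315, 78.6 and 108 in X1, and was not called (limma adjusted p = 0.251), but was without X1 replicate 1, at 0.0183. The call of mwh was lost without X1 replicate 3 and without either w1118 replicate, at adjusted p from 0.0612 to 0.0835, and with a floor of 64, at 0.0854. Pooling X1 with line 89 ended the calls of per, mwh, CG9451 and scpr-C, at adjusted p from 0.0662 to 0.276.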

How the data were processed

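Total RNA (TRIzol, then RNeasy) was labelled with biotin by a one-cycle protocol and hybridized to 1 array per sample, per the labels. The authors deposited linear intensity values made with dChip and normalised to a baseline array with a median of 145, per the series text. Version and model of dChip are not given in the sources used here. Of 18952 probe sets, 183 Affymetrix controls were left out, which left 18769. The annotation gave 1 symbol for 13647, several for 402 and none for 4720, and 13544 matched the RefSeq gene table by Entrez gene, which was used for names and neighbours only.

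Classes and replicate differences used the w1118 arrays, with limits of 4, 6 and 10 on the log2 scale, a floor of 16, a fold of 2 and a minimum log2 intensity of 7 on the brighter array. Groups were compared by limma 3.58.1 (lmFit, eBayes, two-sided; R 4.3.3) on log2 values with a floor of 16, X1 and w1118 with their 5 arrays alone, and line 89 in a fit of all 7 arrays in 3 groups. Calls needed a p under 0.05 after Benjamini-Hochberg adjustment over all fly probe sets. Folds of genes silent in w1118 are set against the floor. The routines were tested on simulated data.

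Named genes were the 25 brightest, up to 5 brightest members of each list, and the 10 largest replicate differences each way. Probe sets of genes on the heat-inducible list were named as well. Those of Hsp110 and the Hsp60 genes were not, and none of them differed by 2-fold between the w1118 arrays. Also named were the 10 largest called rises and falls among abundant probe sets without overlap, and the 10 silent ones brightest in X1. Others are given as dimmest or contrasting members, and were chosen with their values seen. The members, lists and limits were chosen with earlier results of these data known, and 6 lists were added after the values were seen (odorant-binding proteins, imaginal disc growth factors, Osiris and Tweedle proteins, metallothioneins and lysozymes). Where nothing shows that samples came from separate animals, p-values measure only the spread between these samples. Alternatives covered floors, filters, limits, quantile normalization, a lowess centring, a replicate block, and each array left out. The number of arrays limits the precision.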

Additional observations from a re-analysis of the deposited data

Results flagged for a closer look

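For 4 of the named genes the change against w1118 differed between the GAL4 lines, by the limma contrast of X1 against line 89 in the fit of all 7 arrays. The share of all probe sets called in that contrast was 1.98%. The 4 were looked for only among genes already picked for their X1 values, so their count is not read against that share. The contrast was not rerun under the alternatives. ldd was lower in X1 than in line 89 by a log2 difference of -2.91 (adjusted p = 0.0446), with 19.6, 45.1 and 24.7 in X1, against 187 and 237 in line 89. CG4757 was lower by -5.41 (limma adjusted p = 0.0418), with 26.2, 74.6 and 104 in X1, against 3687 and 1702 in line 89. Irk1 was lower by -4.04 (limma adjusted p = 0.0331). scpr-C was higher in X1 by 6.30 (limma adjusted p = 0.00913), with 3698, 3916 and 4415 in X1, against 73.8 and 35.0 in line 89. In each of the 4 genes no X1 array overlapped a line 89 array.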

How the results depend on the processing

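Class sizes follow their limits. With every limit divided by 2 there were 929 silent and 2131 abundant probe sets, and with every limit multiplied by 2 there were 7844 and 644. Counted by genes, there were 1559 silent and 4509 dim ones. Probe sets higher in w1118 replicate 2 numbered 20 at 3-fold, 172 with the minimum on the brighter array divided by 2 and 39 with it multiplied by 4, and those higher in replicate 1 numbered 21, 122 and 26. X1 against w1118 gave 720 higher and 674 lower with a floor of 64, 1201 lower with a floor of 1, and 624 and 606 with all 5 GAL4 arrays as 1 group. Leaving out each array in turn gave 692 to 1939 higher and 848 to 2231 lower. X1 replicates 2 and 3 moved both counts by over 1.5 times, and each w1118 replicate moved the higher count, to 692 and 730. Line 89 gave 286 higher and 203 lower with a floor of 64, 64 lower with a floor of 1, and 178 to 193 higher and 300 to 317 lower without a w1118 replicate. A replicate block in limma used replicates 1 and 2 of X1 and w1118, without X1 replicate 3. It left 0 higher and 0 lower, although 4491 had an unadjusted p under 0.05, and 29 named genes lost their call. The cause of these shifts was not tested. The deviations of same-numbered arrays from their group means correlated at -0.05 and -0.01, over 2 shared numbers. The 2 w1118 arrays deviate from their mean by equal and opposite amounts, so these are not 2 separate checks. They cannot show whether same-numbered arrays shared a preparation. Of 330 alternative values of the named genes in X1, 67 lost the call, 1 gained it and 262 stayed on their side of the threshold.

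Of 40 list medians, 28 were at 64 or above, and 26 or 27 under the alternatives. No value changed sign in any alternative run. Saturation near the highest intensity, the identity of the dim probe sets and the number of animals behind an array limit what these levels show.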
